A study of Gallus gallus with 6 samples.

Results

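The genes encoding the proteins of the mitochondrial ribosome were followed in the ileum of Taiping chickens. They were taken as every row of the deposited gene table whose symbol starts with MRPL or MRPS and a digit, together with DAP3 and PTCD3, which encode small subunit proteins under other names. The rule found 75 genes of the 17623 in the table, 48 of the large and 27 of the small subunit. MRPS30 and MRPS18A carry an S in their names but encode large subunit proteins and were counted there. Of the 75 members, 72 have Ensembl identifiers, and 3 are loci assembled from the reads (MRPL49, Mrpl49 and mrpl36). MRPL11, MRPL52, MRPS15 and MRPS18B were not analysed here. A further 2 rows, unnamed in the table and named MRPL30 and MRPL55 through the reference annotation, fell outside the rule.

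The study compared 2 diets in birds of the Taiping breed aged 2 months, all labelled male. Birds of the control group (CT) ate a corn-soybean basal diet. Birds of the other group (MP_FOS) ate the same basal diet and also received, per litre of water, 2 mL of probiotics and 1 mL of fructo-oligosaccharide, a short chain of fructose that gut bacteria ferment. Each group had 3 RNA libraries, numbered 1 to 3. The labels do not say that each library is a separate bird, so p-values measure only the spread between these samples.

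Mitochondria translate the few messages of their own genome on a dedicated ribosome, whose RNAs are encoded in the mitochondrial DNA and whose proteins are all encoded in the nucleus, made in the cytosol and imported. The large subunit joins amino acids and holds the tunnel through which the new chain leaves, and the small subunit binds the message and reads its codons. The chains it makes are core subunits of the respiratory complexes and of ATP synthase, on which the absorbing epithelium of the gut draws for nutrient transport. Some of its proteins have counterparts in the bacterial ribosome, and others have none there.

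Libraries held 11833015 to 18106651 estimated counts, the fewest in MP_FOS replicate 3. Counts are given below as CPM, which sets every library to 1 common total with edgeR's TMM factors, and 1 count equals 0.0531 to 0.0843 CPM. Over all genes, the log2 CPM of 2 libraries of the same diet correlated at 0.939 to 0.976, and of different diets at 0.942 to 0.972. Although every bird is labelled male, W-linked genes, which only hens carry, had many reads in 4 libraries and almost none in the other 2. HNRNPKL, one of them, had 833 to 1421 counts in the libraries numbered 1 and 3, but 1 count in CT replicate 2 and 3 counts in MP_FOS replicate 2. The 2 libraries numbered 2 thus stand apart from the other 4, and the counts and medians of members are also given without them. All 12 ileal epithelium markers examined, among them EPCAM and VIL1, had counts in all 6 libraries. Of 8 pancreas markers, CPA1, CEL and PNLIP were at 0 throughout, the other 5 had at most 9 counts in any library, and none passed the filter on low counts.

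All 75 members were expressed. Their counts ran from 20.6 to 2269 per library, all passed edgeR's filter on low counts, and together they took 0.253 to 0.274% of all counts. On the FPKM scale (fragments scaled to transcript length and to the size of the library, which allows levels of different genes to be compared) the median member stood at 22.6, with 23.3 for the large and 22.5 for the small subunit. The median over all genes tested was 11.3. Nuclear genes of the oxidative phosphorylation complexes had a median of 80.3, and genes for proteins of the cytosolic ribosome one of 612. Of the members, 58 lay within 2-fold of their median, 9 above that range and 8 below it, as the plot of FPKM by gene shows. The order of levels was much alike in all libraries, with Spearman's rho across the members between 0.883 and 0.959 over the 15 pairs of libraries. Those correlations run across genes, which are not independent replicates, and transcript length and sequence are shared by both libraries of a pair.

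**Figure D1:**
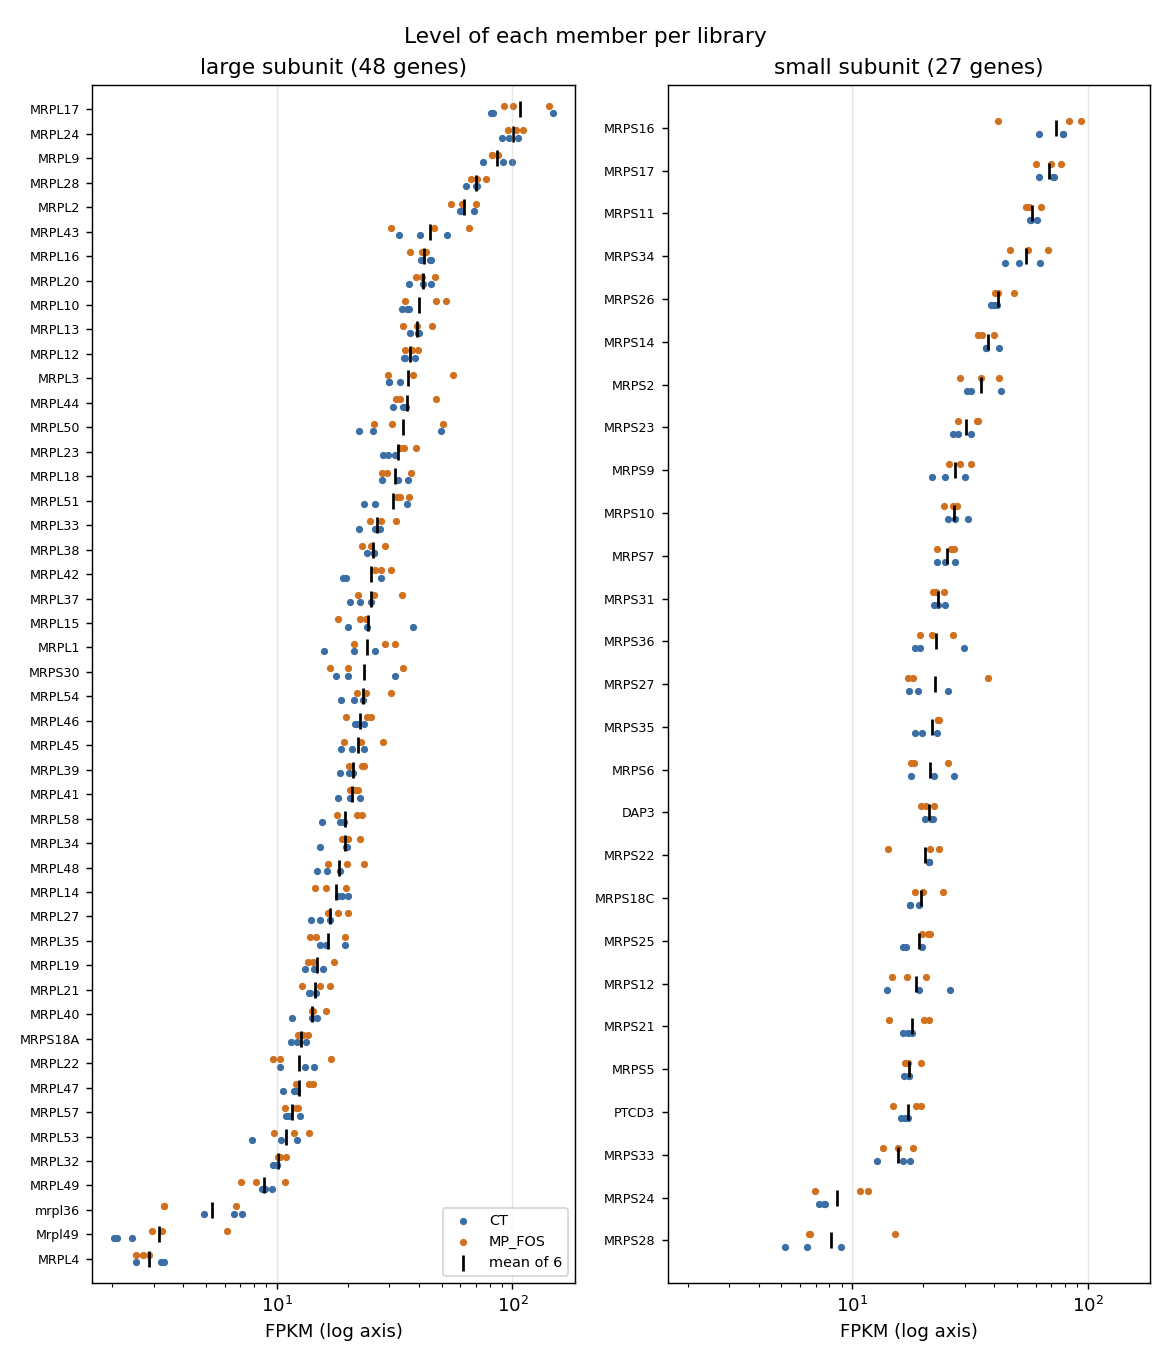
FPKM (log axis) of the 48 large and 27 small subunit genes, ordered by level, with 1 point per library (blue CT, orange MP_FOS) and a bar at the mean of the 6. The quartiles of the members are 17.4 and 35.4 FPKM, and MRPL17, MRPL50, MRPS30 and MRPS27 each have 1 high point in each colour.

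In the large subunit, the genes with the highest mean FPKM were MRPL17, MRPL24, MRPL9, MRPL28 and MRPL2. MRPL17, a counterpart of bacterial L17, had 82.5, 149 and 80.7 FPKM in CT (replicates 1, 2, 3) and 100.1, 143 and 91.9 in MP_FOS. MRPL24, which lies near the exit of the peptide tunnel, had 105, 90.6 and 97.0 FPKM in CT and 111, 95.6 and 103 in MP_FOS. The lead of MRPL17 came from the libraries numbered 2, and in the other 4 libraries MRPL24 was the higher of the pair. MRPL9 followed at 86.2 ± 8.63 FPKM, MRPL28 at 69.8 ± 4.75 and MRPL2, a protein next to the peptidyl transferase centre, at 62.4 ± 5.78 (SD, n = 6). Each of these genes overlapped with the next in this order over the 6 libraries, as did MRPL9 with MRPL17, so their order is not settled beyond the spread. The lowest large subunit rows were MRPL4 (2.85 ± 0.337 FPKM), Mrpl49 (3.14 ± 1.53) and mrpl36 (5.32 ± 1.73). These are uncertain as levels. Mrpl49 and MRPL49 are separate assembled loci with the same name, identifiers MSTRG.11628 and MSTRG.11627. In CT replicate 1 they had 20.56 and 214.44 counts, and in MP_FOS replicate 3 they had 46.18 and 116.82. In every library neither count is whole but the 2 together are, so the counting divided reads between them. The mrpl36 locus, MSTRG.6606, has a length of 7668 bases by the ratio of its counts to its FPKM, against a median of 1292 over the members.

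In the small subunit, MRPS16, MRPS17, MRPS11, MRPS34 and MRPS26 had the highest mean FPKM. MRPS16, a counterpart of bacterial S16, had 78.4, 78.7 and 62.0 FPKM in CT and 83.4, 41.6 and 93.9 in MP_FOS, and its value in MP_FOS replicate 2 was below all others. MRPS17 stood at 68.7 ± 6.35 FPKM, MRPS11 at 58.2 ± 3.05, MRPS34, a protein with no bacterial counterpart, at 54.6 ± 9.25, and MRPS26 at 41.7 ± 3.39 (SD, n = 6). MRPS16 overlapped with each of MRPS17, MRPS11, MRPS34 and MRPS26, and in MP_FOS replicate 2 it lay below all of them. Each of these genes also overlapped with the next in this order, so the order is not settled beyond the spread. The lowest were MRPS28 (8.16 ± 3.65 FPKM), MRPS24 (8.63 ± 2.00), the counterpart of bacterial S3 at the entrance of the mRNA channel, and MRPS33 (15.7 ± 2.16). Over all members the highest mean FPKM was 37.9 times the lowest, and 13.2 times without MRPL4 and the 3 assembled loci.

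No member passed the test of MP_FOS against CT. With edgeR's quasi-likelihood test and Benjamini-Hochberg adjustment over the 13774 genes tested, 0 members had an adjusted p under 0.05, as did 0.0% of all genes. The smallest adjusted p among members was 0.467, and over all genes it was 0.445. DESeq2 called 105 of 13492 genes (0.778%), none a member, and limma-voom called none. At an unadjusted p under 0.05, edgeR had 5 members higher in MP_FOS, which is 6.67% of the 75 beside 5.72% of all genes, and 0 lower, beside 4.86%. The Mrpl49 locus was among the 5, and 4 remained without the 3 assembled loci. DESeq2 had 1 member and limma-voom 2 at that level. In the higher direction the share of members was thus near that of all genes.

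Most members nevertheless lay on the same side of 0. The log2 fold change was above 0 in 63 of 75 members (84.0%) and in 51.5% of all genes tested, with a median of 0.15 (quartiles 0.07 and 0.27) in members and 0.01 over all genes. Large subunit genes had 41 of 48 above 0 and a median of 0.16, and small subunit genes 22 of 27 and a median of 0.10. In CPM, values of all 3 libraries of one diet lay above those of the other for 10 members, all higher in MP_FOS. That is 13.3% of members, beside 8.2% of all genes, and the opposite case held for 0 members beside 8.49% of all genes. Without the 3 assembled loci, Mrpl49 among them, 9 of 72 members (12.5%) were higher in MP_FOS without overlap. Genes as long as the middle members, between 889.5 and 1762 bases, had 57.4% above 0 and a median of 0.06. Of these 3736 genes, 10.9% were higher in MP_FOS without overlap, nearer to the 13.3% of members, and 217 were lower without overlap. On the FPKM scale with a pseudocount of 1, 55 members were above 0 and their median log2 fold change was 0.07, where 40.2% of all genes were above 0 with a median of −0.06. Of the 10 members without overlap in CPM, MRPL23, MRPL32, Mrpl49 and MRPS35 also had none in FPKM. In MRPL27, MRPL34, MRPL47, MRPS18C, MRPS25 and MRPS26 the diets overlapped in FPKM. Overlap of single genes between the diets is given below in CPM. All members were measured in the same 6 libraries, so the 63 genes are not independent observations, and no test was made of the list.

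**Figure D2:**
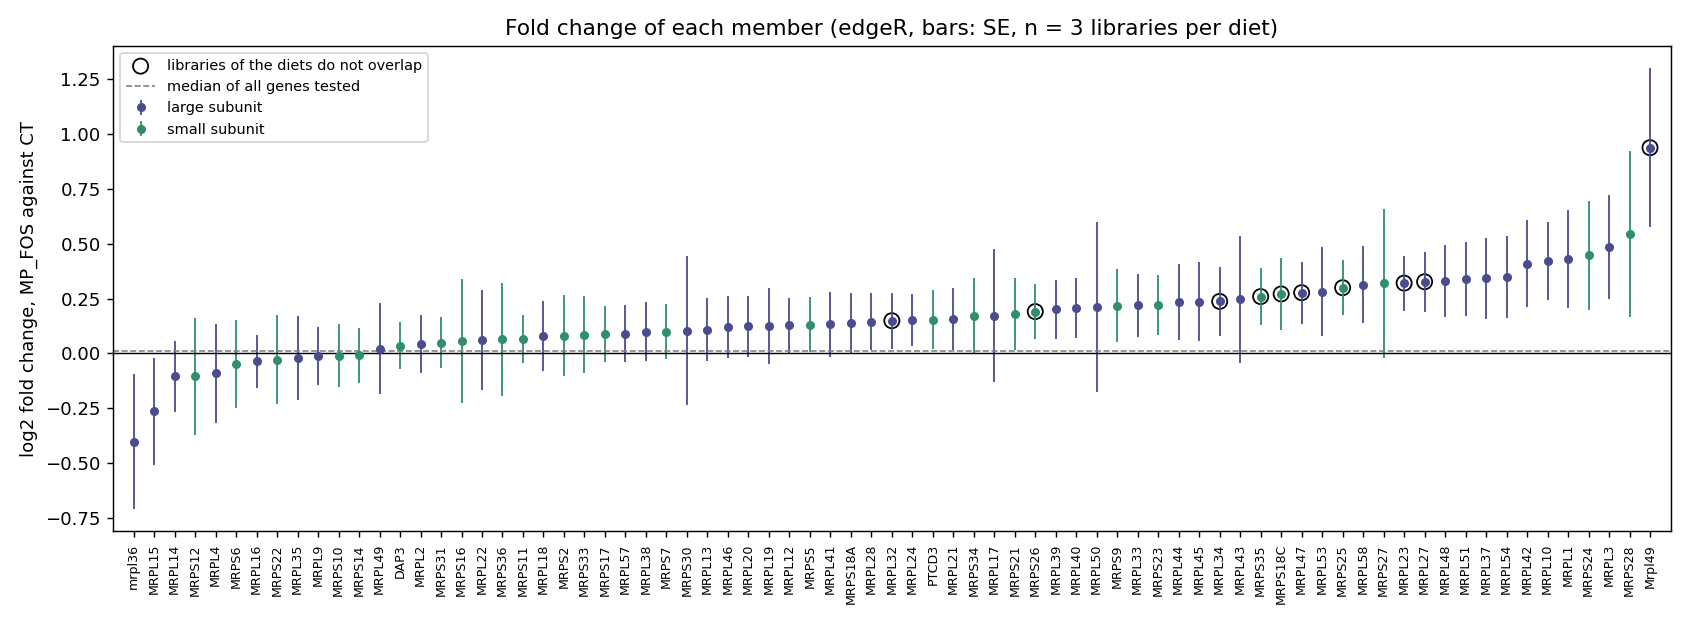
Log2 fold change of MP_FOS against CT (edgeR, bars are the SE, 3 libraries per diet) for the 75 members in rising order, large subunit in blue and small subunit in green, with the median of all genes as a dashed line. The points run from −0.40 (mrpl36) to 0.94 (Mrpl49), and circles mark the 10 members whose diets do not overlap in CPM.

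Summed over members, normalised CPM was 2533, 2590 and 2434 in CT (replicates 1, 2, 3) and 2822, 2874 and 2667 in MP_FOS. The diets did not overlap in this sum. As a share of all counts, without TMM factors, members took 0.263, 0.258 and 0.253% in CT and 0.274, 0.274 and 0.267% in MP_FOS. The means of CT and MP_FOS were 0.258 and 0.272% as a share, and 2519 and 2787 in CPM. Part of the difference in CPM thus came with the TMM factors. The large subunit had 1517, 1586 and 1445 CPM in CT and 1713, 1806 and 1567 in MP_FOS, where MP_FOS replicate 3 lay below CT replicate 2. The small subunit had 1016, 1004 and 989.6 CPM in CT and 1108, 1068 and 1100 in MP_FOS, without overlap on this scale. In summed FPKM, given below, the diets overlapped in each subunit. In bulk tissue such a sum cannot tell a change in RNA per cell from a change in how many cells of each type were sampled.

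Large and small subunits were compared on the FPKM scale. The summed FPKM of the large subunit was 1372, 1380 and 1303 in CT and 1457, 1503 and 1379 in MP_FOS, and that of the small subunit 774.4, 746.1 and 764.8 in CT and 793.9, 745.5 and 821.2 in MP_FOS. Their log2 ratio was 0.83, 0.89 and 0.77 in CT and 0.88, 1.01 and 0.75 in MP_FOS, with means of 0.83 ± 0.06 and 0.88 ± 0.13 (SD, n = 3). The difference of 0.05 was smaller than the spread within either diet, and the diets overlapped. It was −0.02 without MP_FOS replicate 2, 0.12 without MP_FOS replicate 3 and 0.02 with both libraries numbered 2 left out.

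**Figure D3:**
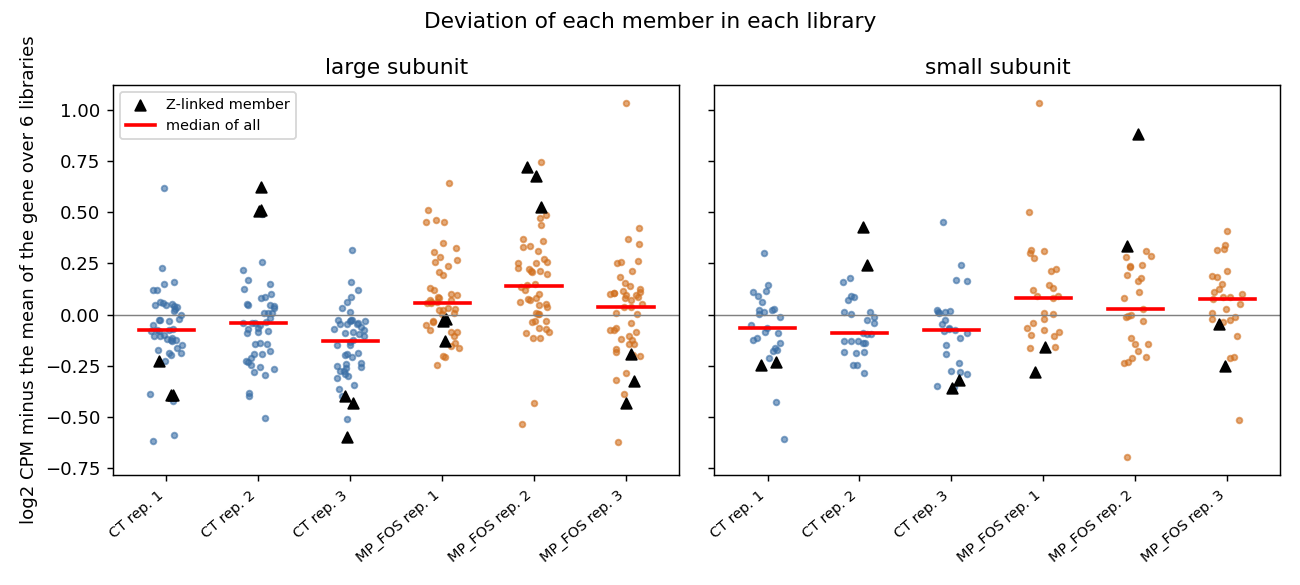
Each point is 1 member in 1 library, as log2 CPM minus the mean of that gene over the 6 libraries, with the median as a red line and the 5 Z-linked members as triangles. The median of each MP_FOS library lies above that of each CT library in both subunits, and the triangles are high in the libraries numbered 2.

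Relative to the CT mean of each gene, the large subunit median was 0.02, 0.03 and −0.07 on the log2 scale in CT (replicates 1, 2, 3) and 0.14, 0.27 and 0.11 in MP_FOS. For the small subunit it was −0.01, 0.00 and −0.02 in CT and 0.09, 0.10 and 0.09 in MP_FOS. MP_FOS replicate 2 held the highest CPM of 29 members, more than any other library, and CT replicate 3 the lowest of 26. The Z-linked MRPL17, MRPL50, MRPS30 and MRPS27 were among those 29. The same counts were not made over all genes. With both libraries numbered 2 left out, 60 members were above 0 and the median log2 fold change over members was 0.15.

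Among large subunit proteins around the tunnel exit, 6 of 6 genes had a log2 fold change above 0, with a median of 0.23 (5 of 6 with both libraries numbered 2 left out). MRPL23 (ENSGALG00000006561), the counterpart of bacterial L23 at the rim of the exit, had 24.1, 26.8 and 22.9 CPM in CT and 30.0, 29.4 and 32.8 in MP_FOS. Every MP_FOS library lay above every CT library, and the log2 fold change was 0.32 ± 0.12 (SE; edgeR adjusted p = 0.467). MRPL24 had 81.9, 73.2 and 75.2 CPM in CT and 92.3, 81.0 and 82.8 in MP_FOS, with overlap between the diets and a log2 fold change of 0.15 ± 0.12. MRPL45, which docks the ribosome to the inner membrane in mammals, had a log2 fold change of 0.24 ± 0.18, and MRPL44, which has the fold of an RNase III, one of 0.23 ± 0.17. MRPL22 was at 0.06 ± 0.23.

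MRPL2, MRPL3, MRPL4, MRPL16 and MRPL27 were assigned here to the wider region of the peptidyl transferase centre, and the counts depend on that choice. Of these 5 genes, 3 were above 0, with a median log2 fold change of 0.04. With both libraries numbered 2 left out it was 5 of 5 and 0.10. MRPL27 (ENSGALG00000038812), whose bacterial counterpart reaches into that centre, had 24.4, 23.3 and 26.9 CPM in CT and 28.3, 35.0 and 30.3 in MP_FOS. Its diets did not overlap, with a log2 fold change of 0.33 ± 0.14 (edgeR adjusted p = 0.472), and 0.19 with both libraries numbered 2 left out. MRPL3 had 33.7, 31.4 and 30.1 CPM in CT and 31.8, 61.7 and 39.6 in MP_FOS (log2 fold change 0.48 ± 0.24), with MP_FOS replicate 2 far above the rest. Without that library its log2 fold change was 0.17. MRPL2, MRPL4 and MRPL16 were at 0.04 ± 0.13, −0.09 ± 0.23 and −0.04 ± 0.12.

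The stalks guide factors and tRNAs on and off the large subunit. MRPL10 (ENSGALG00000014387) anchors the lateral stalk, to which MRPL12 binds as the protein that recruits translation factors. MRPL10 had 42.0, 42.9 and 39.2 CPM in CT and 58.6, 65.7 and 41.8 in MP_FOS. Of the MP_FOS libraries, 1 lay within the CT range, and the log2 fold change was 0.42 ± 0.18 (edgeR adjusted p = 0.473). MRPL12 was among the steadiest members, with 19.2, 19.7 and 21.1 CPM in CT and 22.0, 21.0 and 22.7 in MP_FOS and a log2 fold change of 0.13 ± 0.12. MRPL1, of the stalk at the tRNA exit, had 20.4, 34.7 and 27.0 CPM in CT and 39.2, 29.8 and 41.9 in MP_FOS, which overlapped (log2 fold change 0.43 ± 0.22, and 0.78 with both libraries numbered 2 left out).

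The large subunit rows without a counterpart in the bacterial ribosome, which count the MRPL49 and Mrpl49 loci separately, had 20 of 20 above 0. Their median log2 fold change was 0.23, and rows with a counterpart had 21 of 28 and 0.13. The first count was 19 of 20 with both libraries numbered 2 left out and 17 of 20 without MP_FOS replicate 2 or without CT replicate 3. In the small subunit, genes without such a counterpart had 10 of 11 above 0 and a median of 0.17, and those with one 11 of 15 and 0.09. By overlap in CPM the large subunit had the reverse order. Higher without overlap were 1 of the 20 rows without a counterpart (5.0%, the Mrpl49 locus) and 5 of the 28 with one (17.9%). In the small subunit it was 3 of 11 (27.3%) and 1 of 15 (6.67%), beside 8.2% of all genes. The difference between the 2 kinds was not tested in either subunit. MRPL42 had 13.4, 20.2 and 13.6 CPM in CT and 19.5, 23.2 and 20.0 in MP_FOS, with CT replicate 2 inside the MP_FOS range and a log2 fold change of 0.41 ± 0.20. MRPL37 was at 0.34 ± 0.18 and MRPL58, which releases chains from stalled ribosomes, at 0.31 ± 0.18. The Mrpl49 locus had 1.26, 1.33 and 1.59 CPM in CT and 1.97, 2.26 and 3.88 in MP_FOS (log2 fold change 0.94 ± 0.36, edgeR adjusted p = 0.467). It rests on 20.6 to 46.2 counts per library, and the MRPL49 locus beside it in name was at 0.02 ± 0.21. Both fold changes depend on how the counting divided reads between the 2 loci.

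Besides MRPL23, MRPL27 and Mrpl49, the large subunit genes whose diets did not overlap were MRPL47, MRPL34 and MRPL32, which are given here after their values were seen. MRPL47, another protein near the tunnel exit, had 16.8 to 19.5 CPM in CT and 20.4 to 24.5 in MP_FOS. MRPL34 had 18.4 to 24.8 CPM in CT and 24.9 to 29.0 in MP_FOS, and MRPL32 had 16.7 to 18.1 in CT and 19.2 to 19.7 in MP_FOS. Their log2 fold changes were 0.28 ± 0.14, 0.24 ± 0.16 and 0.15 ± 0.13, and the gap between the diets was narrow in MRPL34.

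Of the large subunit genes with a log2 fold change below 0, the mrpl36 locus had 36.2, 54.6 and 48.4 CPM in CT and 53.1, 26.8 and 25.3 in MP_FOS, with overlap and a log2 fold change of −0.40 ± 0.31. It was −0.84 without MP_FOS replicate 1, −0.21 without MP_FOS replicate 3 and −0.10 with both libraries numbered 2 left out. MRPL15 was at −0.26 ± 0.24, with 46.2 CPM in CT replicate 1 and between 23.0 and 31.8 in the other 5 libraries. Without CT replicate 1 its log2 fold change was 0.03. MRPL14 was at −0.10 ± 0.16 (−0.26 without MP_FOS replicate 2 and −0.02 without MP_FOS replicate 1) and MRPL35 at −0.02 ± 0.19. None of the 7 large subunit genes below 0 had an unadjusted p under 0.05. Of the rows named only through the reference, MRPL30 had 16.6 to 21.4 CPM in CT and 19.3 to 30.3 in MP_FOS (log2 fold change 0.43 ± 0.20), and MRPL55 was at 0.21 ± 0.18.

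In the small subunit, MRPS25 (ENSGALG00000008506), a protein of mitochondrial ribosomes only, had 32.8, 28.9 and 27.0 CPM in CT and 34.9, 38.5 and 35.7 in MP_FOS. The diets did not overlap, and the log2 fold change was 0.30 ± 0.13 (edgeR adjusted p = 0.473). MRPS35 had 29.4, 26.4 and 23.6 CPM in CT and 31.9, 32.4 and 30.7 in MP_FOS, again without overlap (log2 fold change 0.26 ± 0.13). MRPS26 had 69.6, 70.6 and 71.7 CPM in CT and 75.4, 91.9 and 74.6 in MP_FOS, also without overlap, and a log2 fold change of 0.19 ± 0.13, which was 0.09 without MP_FOS replicate 2. MRPS18C, one of several counterparts of bacterial S18, had 11.9, 11.3 and 10.9 CPM in CT and 13.2, 12.4 and 15.5 in MP_FOS and a log2 fold change of 0.27 ± 0.16, and MRPS18A, its relative in the large subunit, was at 0.14 ± 0.14. These 4 small subunit genes were those whose diets did not overlap.

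MRPS24 had 5.29, 5.57 and 5.05 CPM in CT and 8.66, 5.29 and 7.75 in MP_FOS, where MP_FOS replicate 2 lay within the CT range (log2 fold change 0.45 ± 0.25, and 0.67 with both libraries numbered 2 left out). MRPS23 was at 0.22 ± 0.14 (0.12 with both of those libraries left out) and MRPS34 at 0.17 ± 0.17. The GTP-binding DAP3, known in mammals also as a mediator of cell death, was the steadiest member, with 37.8, 36.5 and 36.8 CPM in CT and 37.7, 36.6 and 39.5 in MP_FOS and a log2 fold change of 0.04 ± 0.11. PTCD3, a protein of the pentatricopeptide repeat family, which binds RNA, was at 0.15 ± 0.13. MRPS12, at the decoding site, had 7.21, 10.3 and 13.2 CPM in CT and 11.3, 8.26 and 9.02 in MP_FOS (log2 fold change −0.10 ± 0.26). MRPS6, MRPS22, MRPS10 and MRPS14 were the other small subunit genes below 0, at −0.05 ± 0.20, −0.03 ± 0.20, −0.01 ± 0.14 and −0.01 ± 0.12. MRPS22 had 22.7 CPM in MP_FOS replicate 3 and 32.7 to 39.4 in the other 5 libraries, and without MP_FOS replicate 3 it was at 0.17.

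The spread between libraries of a diet was small for most members. The within-group SD of log2 CPM had a median of 0.185 over members, 0.187 for the large and 0.145 for the small subunit, and 0.253 over all genes tested. It was 0.145 for the nuclear oxidative phosphorylation genes and 0.246 for cytosolic ribosomal proteins. Level was not matched here, as the median FPKM was 22.6 in members and 11.3 over all genes tested. Among members, DAP3 (0.04), MRPL32 (0.04), MRPL12 (0.06) and MRPS11 (0.07) had the lowest values. MRPL50 (0.60), MRPS28 (0.56), MRPS30 (0.53) and MRPS27 (0.52) had the highest. For MRPS28, 1 library stood apart, with 27.9 CPM in MP_FOS replicate 1 and 8.95 to 15.4 in the other 5. MRPL32, MRPL50, MRPS11 and MRPS28 were singled out here after their values were seen.

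**Figure D4:**
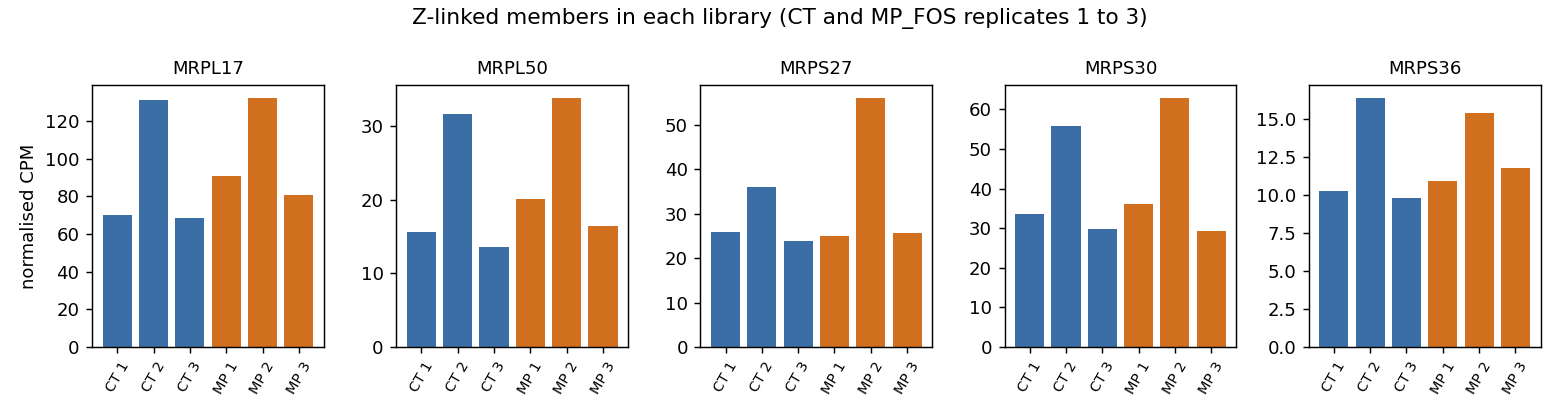
Normalised CPM of the 5 Z-linked members in each library (bars from 0, blue CT, orange MP_FOS). In each panel the bar of replicate 2 is the highest of its diet, and the 2 such bars are above the other 4.

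The other 3 of those 4 are encoded on the Z chromosome. Among the 69 members that the RefSeq annotation of GRCg7b places on a chromosome, 5 are on Z: MRPL17, MRPL50 and MRPS30 of the large subunit and MRPS27 and MRPS36 of the small. In all 5, CT replicate 2 and MP_FOS replicate 2 were both above the other 4 libraries, which held for 2 of the other 70 members (MRPL42 and MRPS5), 5.74% of all genes and 47.3% of the 565 Z chromosome genes tested. Birds have ZZ males and ZW females and compensate the Z only in part, so that many Z genes are expressed at a higher level in males. The libraries numbered 2 are those with 3 or fewer counts of each W-linked gene examined, although the labels give 1 sex for all.

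MRPL17 had 131.5 CPM in CT replicate 2 beside 70.1 and 68.4 in the other CT libraries, and 132.5 in MP_FOS replicate 2 beside 90.8 and 80.7. Replicate 2 was 1.9 times the mean of the other CT libraries and 1.54 times that of the other MP_FOS libraries. MRPL50, a protein of mitochondrial ribosomes only, had 31.7 CPM in CT replicate 2 beside 15.7 and 13.6, and 33.9 in MP_FOS replicate 2 beside 20.1 and 16.4. MRPS30 had 55.9 CPM in CT replicate 2 beside 33.7 and 29.9, and 63.0 in MP_FOS replicate 2, which was 1.93 times the mean of the other MP_FOS libraries. MRPS27, a pentatricopeptide repeat protein that binds mitochondrial RNA in mammals, had 25.9, 36.1 and 23.8 CPM in CT and 25.1, 56.1 and 25.6 in MP_FOS. MRPS36, which is now assigned in mammals to the oxoglutarate dehydrogenase complex and not to the ribosome, had 10.3, 16.4 and 9.78 CPM in CT and 10.9, 15.4 and 11.8 in MP_FOS.

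On the log2 scale the libraries numbered 2 exceeded the other 4 by a median of 0.84 in the Z-linked members, 0.49 in all Z chromosome genes tested and 0.01 in all genes. The contrast of diets was small beside this, with log2 fold changes from 0.07 ± 0.26 (MRPS36) to 0.32 ± 0.34 (MRPS27). With the 5 genes left out, the median log2 fold change was 0.15 for the large and 0.10 for the small subunit. The log2 ratio of large to small subunit without them was 0.76, 0.73 and 0.70 in CT and 0.79, 0.90 and 0.67 in MP_FOS. In the opposite direction, both libraries numbered 2 were below the other 4 for 5 members (MRPL43, DAP3, MRPS17, MRPS2 and MRPS34), beside 5.66% of all genes.

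The remaining machinery of mitochondrial gene expression was compared through lists of known members. None of the genes in them passed edgeR's test at an adjusted p of 0.05. AURKAIP1 and CHCHD1, small subunit proteins named outside the MRP series, had log2 fold changes of 0.35 ± 0.18 and 0.06 ± 0.13. Factors that assemble the ribosome and modify its RNAs had 16 of 26 genes above 0 and a median log2 fold change of 0.03, with 0 genes in either direction at an unadjusted p under 0.05. Among them METTL15, which methylates the small subunit RNA, was at 0.62 ± 0.33 and YBEY at −0.25 ± 0.14. The median of this list was −0.01 under upper-quartile scaling and −0.05 on the FPKM scale. All genes tested had medians of −0.03 and −0.06 (pseudocount of 1) in those fits.

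Translation factors had 12 of 16 genes above 0 and a median log2 fold change of 0.09, and 10 of 16 and 0.01 with both libraries numbered 2 left out. MTRF1L, a release factor, was at −0.29 ± 0.17 with every MP_FOS library below every CT library, and GATC, which helps to charge the glutamine tRNA, at 0.25 ± 0.17. Of the mitochondrial aminoacyl-tRNA synthetases, 11 of 18 were above 0 with a median of 0.11, which was 0.07 with both libraries numbered 2 left out. PARS2, which charges the proline tRNA, had 11.7, 14.3 and 10.6 CPM in CT and 7.04, 9.21 and 8.01 in MP_FOS. It was lower in each MP_FOS library than in any CT library (log2 fold change −0.59 ± 0.20, edgeR adjusted p = 0.455). MTRF1L and PARS2 were the only such genes, 1 of 16 and 1 of 18 in their lists, where 8.49% of all genes were lower without overlap. These shares are no higher than that of all genes. Genes of mitochondrial DNA transcription and RNA processing had 19 of 20 above 0 and a median of 0.13, and 17 of 20 and 0.07 with both libraries numbered 2 left out. MTERF2, a protein that binds mitochondrial DNA, had 6.55, 5.33 and 4.83 CPM in CT and 9.79, 7.01 and 8.34 in MP_FOS (log2 fold change 0.59 ± 0.23, edgeR adjusted p = 0.467), and TBRG4, which stabilises mitochondrial messages in mammals, was at 0.29 ± 0.15.

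Transcription factors and coactivators known for driving nuclear genes of mitochondrial proteins had 3 of 8 above 0. PPARGC1A was at 0.26 ± 0.24 on the log2 scale, Ppargc1b at −0.24 ± 0.19 and PPRC1 at 0.11 ± 0.28. NRF1 and GABPA, whose motifs are known in promoters of such genes, were at −0.08 ± 0.19 and −0.08 ± 0.13. GABPB1, YY1 and MYC were at 0.07 ± 0.13, −0.06 ± 0.13 and −0.04 ± 0.16. No unadjusted p in this list was under 0.05.

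**Figure D5:**
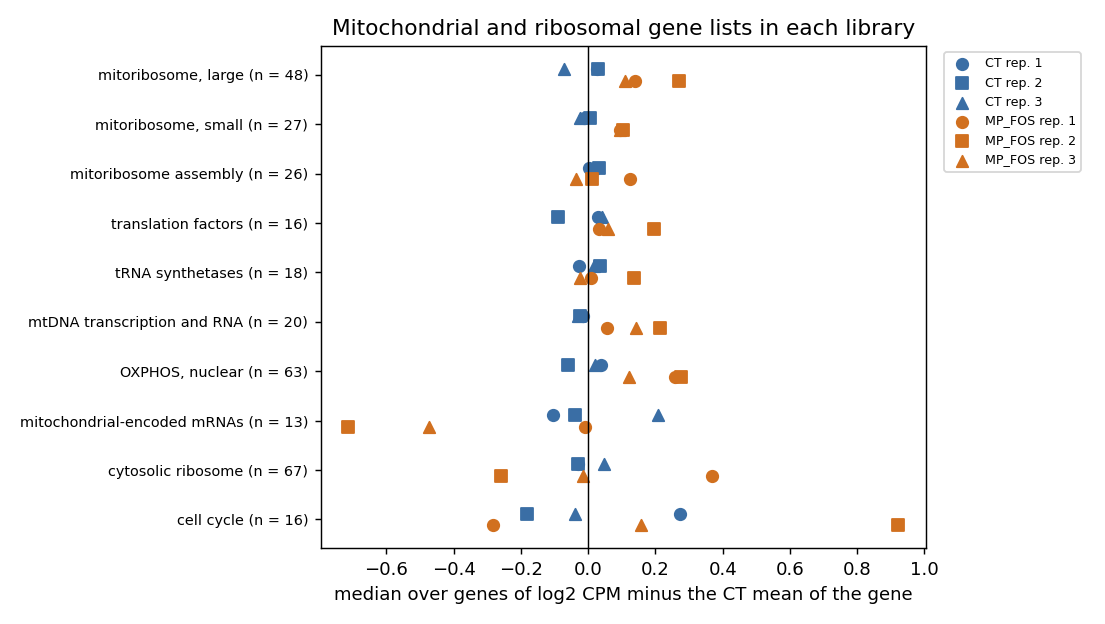
The x axis is the log2 CPM of a gene less its mean in CT, taken as the median over each list, with 1 symbol per library (blue CT, orange MP_FOS). Both subunits of the mitochondrial ribosome, the mitochondrial transcription and RNA genes and the nuclear oxidative phosphorylation genes have all 3 MP_FOS symbols to the right of all 3 CT symbols, while mitochondrial-encoded messages, cytosolic ribosomal proteins and cell cycle genes are spread by library.

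The messages that the mitochondrial ribosome translates did not share the sign of the genes for its proteins. Of the 13 mitochondrial-encoded mRNAs, 1 had a log2 fold change above 0, with a median of −0.31. ND4L was at −0.59 ± 0.19 (edgeR adjusted p = 0.448) and ND2 at −0.60 ± 0.22 (adjusted p = 0.464), both subunits of complex I. Relative to the CT mean, the median of the 13 lay at −0.105, −0.038 and 0.208 in CT replicates 1, 2 and 3. In MP_FOS it was −0.01, −0.71 and −0.47, so MP_FOS replicate 1 lay within the CT range. MP_FOS replicate 2, the lowest here, had the highest median of large subunit genes. The nuclear genes of the oxidative phosphorylation complexes, whose products join those chains, had 58 of 63 above 0 with a median of 0.23, and 25 were higher with diets that did not overlap, which is 39.7% beside 8.2% of all genes. Among them NDUFS3 had 47.8, 40.8 and 44.6 CPM in CT and 75.3, 71.0 and 50.6 in MP_FOS (log2 fold change 0.56 ± 0.17, edgeR adjusted p = 0.445), and NDUFC2 was at 0.40 ± 0.12 (adjusted p = 0.445).

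For the cytosolic ribosome, the sign depended on the library and on the scale. Of its 67 protein genes tested, 49 were above 0 with a median log2 fold change of 0.06, which was −0.03 on the FPKM scale and −0.01 after a trend with transcript length was removed. All genes tested had medians of 0.01 in the main fit, −0.06 on the FPKM scale (pseudocount of 1) and 0.01 with that trend removed. By library the median of the 67 genes was 0.37, −0.26 and −0.01 in MP_FOS replicates 1, 2 and 3. Without MP_FOS replicate 1 it was −0.14 with 8 of 67 above 0, and without MP_FOS replicate 2 it was 0.19 with 65 of 67 above 0. The mitochondrial ribosome's members had 58 and 57 of 75 above 0 in those same fits, with medians of 0.15 and 0.12.

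Markers of cell types were read in the same libraries. Ileal epithelium markers had 8 of 12 genes above 0 and a median log2 fold change of 0.29, with summed levels of 16520 to 20630 CPM in CT and 13970 to 22410 in MP_FOS. Relative to the CT mean their median was 0.00, 0.24 and −0.14 in CT and 0.29, 0.63 and 0.19 in MP_FOS (replicates 1, 2, 3). This median was highest in MP_FOS replicate 2, as was that of the large subunit. The epithelial sum was instead highest in MP_FOS replicate 1, with 22410, 18070 and 13970 CPM in MP_FOS replicates 1, 2 and 3. Cell cycle genes had 15 of 16 above 0, but at −0.28, 0.92 and 0.16 in the 3 MP_FOS libraries, with summed levels of 783.6 to 1048 CPM in CT and 703.6 to 1598 in MP_FOS. With both libraries numbered 2 left out, 5 of 16 cell cycle genes were above 0, where the members had 60 of 75. Fibroblast and matrix genes had 1 of 9 above 0, with summed levels of 5849 to 6047 CPM in CT and 3858 to 5452 in MP_FOS. Enteric neuron and glia genes had 0 of 10, with 93.4 to 111.3 CPM in CT and 63.3 to 86.8 in MP_FOS. Smooth muscle genes had 4 of 8 above 0 and a median log2 fold change of −0.02, and T and NK cell genes 4 of 8 and 0.02. Macrophage and dendritic cell genes had 4 of 7 and 0.385, and B and plasma cell genes 1 of 7 and −0.68. Their sums overlapped, with 9628 to 10470 and 934.1 to 1561 CPM in CT and 8290 to 12070 and 969.1 to 1492 in MP_FOS. Smooth muscle sums also overlapped (5713 to 8117 CPM in CT, 5287 to 8514 in MP_FOS). Those of T and NK cell genes did not (1050 to 1234 CPM in CT, 1257 to 1559 in MP_FOS). The part of any of these cell types in the values of the mitochondrial ribosome genes was not tested.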

How the data were processed

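Total RNA was extracted with TRIzol, and the kit named for the libraries is one for small RNA, per the labels' protocols. StringTie, HISAT2, Bowtie2, DESeq2 and fastp 0.18.0 were used, per the submitters' processing notes. Their roles and the genome build were not given in the sources used here. A table from the authors, as deposited, holds estimated counts (expected counts, 7.98% of them not whole) and FPKM per gene and library, per the file headers.

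After rounding to whole numbers, counts went through edgeR 4.0.16 (R 4.3.3) with filterByExpr, TMM factors, a two-sided quasi-likelihood F test of MP_FOS against CT, and Benjamini-Hochberg adjustment over 13774 genes at 0.05. Dividing a log2 fold change, without its sign, by the square root of F gave its SE. The common biological coefficient of variation was 0.264. Subunit sums and levels between genes used the deposited FPKM. Limma 3.58.1 and DESeq2 1.42.0, other scalings and filters, and each library left out were alternatives. The code was tested on 3 simulated sets of counts. There the edgeR test recovered 93.8% of the 4-fold and 32.4% of the 2-fold changes put in.

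Members and lists were chosen with earlier results of these data known. Per subunit, the rule for named genes took the 5 highest and 3 lowest by FPKM, up to 6 of smallest p per direction, and members of fixed roles. From most other lists it took the 2 of smallest p. A gene that this rule names is not reported here. Chromosomes came from RefSeq GRCg7b and transcript length from the ratio of count to FPKM. No nucleotide or protein sequence was used here. Replicate numbers did not pair the libraries.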

Additional observations from a re-analysis of the deposited data

How the results depend on the processing

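In all edgeR, DESeq2 and limma settings tried, 0 members passed the threshold and 55 (FPKM) to 66 (without CT replicate 1) of 75 had a log2 fold change above 0. Genes called over the whole table numbered 0 with edgeR, 223 without MP_FOS replicate 1, 1 with both libraries numbered 2 left out and 105 with DESeq2. With limma on log2(FPKM + 1) the median log2 fold change was 0.0707 for all members, 0.0773 for the large and 0.0272 for the small subunit, and with a pseudocount of 0.1 it was 0.0739, 0.0797 and 0.0291. The small subunit median (0.0992) was 0.0581 under upper-quartile scaling, 0.0746 with a length trend removed, 0.119 with both libraries numbered 2 left out, 0.115 without MRPS36, and 0.086 (without MP_FOS replicate 2) to 0.157 (without MP_FOS replicate 1) with 1 library left out. In all of these the small subunit median stayed above 0. Over all genes tested the median was 0.0104 in the main fit, −0.029 under upper-quartile scaling and 0.0143 with the length trend removed. It was −0.0585 on log2(FPKM + 1) and −0.071 with a pseudocount of 0.1. Among the uncalled members with log2 fold changes below 0 that were named by smallest p, mrpl36 and MRPL14 stayed below 0 and the others changed sign when 1 library was left out. They ran from −0.431 to 0.0305 for MRPL15, from −0.21 to 4.03e-05 for MRPL4, from −0.0909 to 0.011 for MRPL16 and from −0.16 to 0.112 for MRPL35. In the small subunit they ran from −0.302 to 0.124 for MRPS12, from −0.243 to 0.103 for MRPS6, from −0.189 to 0.174 for MRPS22, from −0.083 to 0.063 for MRPS10 and from −0.0536 to 0.0476 for MRPS14. With both libraries numbered 2 left out, MRPL4 was at 0.0305, MRPL16 at 0.0575 and MRPL35 at 0.157. The cause was not tested. Same-numbered libraries of the 2 diets had correlations of 0.02, 0.28 and 0.16 between their deviations from the group means. As 1 of them was near 0, the numbers were not taken as pairs, and not every library correlated best with its own number. With the replicate number as a block, 0 genes were called, 61 members were above 0 and their median was 0.15. Leaving out the Z-linked members or the 3 assembled loci was chosen after seeing the data, and no median of a subunit moved beyond 0.01. Depth limits the weakest member most, a locus with as few as 20.6 counts in a library.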
